A study of Mus musculus with 5 samples.

Results

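The 80 histone genes given a protein-coding biotype among the 52029 genes of the deposited table were described in mouse hepatobiliary organoids with and without liver endothelial cells. They were chosen by symbol (H1f, H2ac, H2bc, H2a, H3c, H3f and H4c names, and the older Hist names) together with a protein-coding biotype. Of them, 68 were replication-dependent genes, with 6 of the linker histone H1, 18 of H2A, 19 of H2B, 12 of H3 and 13 of H4, and 12 were variant genes, with 5 of H1, 4 of H2A and 3 of H3. The organoids were epithelial cultures grown in vitro from primary wild-type liver stem/progenitor cells. In 3 libraries the organoids were at passage 8 and had been co-cultured with liver endothelial cells (LiECs), and in 2 libraries they were at passage 1 and had been cultured alone, all at day 10 and in the same medium with EGF, heparin and the kinase inhibitor Y-27632. Co-culture and passage therefore cannot be told apart in any difference given here. RNA was total RNA from which ribosomal RNA had been removed, which keeps RNAs without a poly(A) tail. Co-culture libraries M9 and M10 and libraries M11 and M12 of organoids alone shared 1 table of estimated counts. The third co-culture library had a table of its own, with another annotation, and enters as values without a test.

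Nuclear DNA is wrapped around octamers of the core histones H2A, H2B, H3 and H4, and the linker histone H1 binds where the DNA enters and leaves. Most replication-dependent genes lie in clusters and have no introns, and they are transcribed mainly in S phase. Their messages normally end in a conserved stem-loop, bound by the protein SLBP, in place of a poly(A) tail. Variant histones such as H3.3 and H2A.Z are made throughout the cell cycle from messages with poly(A) tails, also in cells that do not divide.

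All 80 genes were found in GENCODE M21 (GRCm38), which lists 2 of them, H2bc26-ps and H3f4, as pseudogenes with no protein-coding transcript. Of the 68 replication-dependent genes, 54 lay on chromosome 13 between positions 21715763 and 23934851, 10 on chromosome 3 between 96219865 and 96270132, 3 on chromosome 11 between 58948920 and 58956830, and 1 on chromosome 6. The 16-base stem-loop was searched on the sense strand of annotated transcripts as GG, 2 free bases, CTTTT, 1 free base, AG, 2 free bases and CC, and in every distinct match among the members the 6 bases on each side of the loop were complementary. It was found in 44 of 68 replication-dependent genes and in 1 of 12 variant genes, against 72 of 21901 protein-coding genes (0.329%). The letters below are shown because they mark the members with this stem-loop in an annotated transcript and because they split the family by class. They are DNA letters in the sense direction, 5′ to 3′, with the paired stem in capitals and the loop in lower case.
26 genes of H1, H2A, H2B and H3: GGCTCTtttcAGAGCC
6 genes of H1, H2B and H3: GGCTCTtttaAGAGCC
7 genes of H4: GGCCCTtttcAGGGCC
H4c11 and H4c2: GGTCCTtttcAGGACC
H4c14 and H4c9: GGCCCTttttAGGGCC
H2ac20: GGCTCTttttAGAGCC
H2ax: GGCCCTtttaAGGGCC

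None of the H4 genes with a match carried the GGCTCT stem, which every H1, H2A, H2B and H3 gene with a match carried apart from H2ax. H2ax, which encodes the variant phosphorylated at DNA breaks, carried the GGCCCT stem of most H4 genes. Annotated transcripts went on for at least 100 bases past the stem-loop in 22 of the 44 replication-dependent genes, among them H1f2 with 840 bases, H2ac25 with 1643 and H4c9 with 330. The other 22 ended within 100 bases of it. H2bc4 and H2bc21, both of H2B, had no match in an annotated transcript. A match or its lack is a property of these letters and of the annotation, and the ends of the sequenced RNAs were not measured. Some members without a match have short annotated transcripts, such as H4c12 with 312 bases. A stem-loop beyond the annotated end would be missed.

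Near-identical copies limit how far single members can be read. The share of a gene's 75-base windows found identically in another gene's transcript had a median of 41.5% in replication-dependent genes and 0% in variant genes. It was over 50% in 28 replication-dependent genes and in no variant, and 6 replication-dependent genes shared no window. Estimated counts were not whole in 56 of the 63 replication-dependent genes with a count above 0 and in 7 of the 10 variants, against 31.7% of all 28691 such genes. Values of single replication-dependent genes are therefore uncertain wherever copies share sequence, and sums over copies are given where it matters.

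Total counts were 33881617 in M9 and 35878241 in M10, with 58853737 in the third co-culture library, and 26466739 in M11 and 29195328 in M12 of organoids alone. Nothing in the labels ties the libraries of a group to separate cultures, and p-values therefore rest on library spread that could be technical alone. The 7 markers of biliary and progenitor epithelium summed to 7420 to 11114 raw CPM (counts per 1000000 total counts of the library) in the co-culture libraries and to 7476 and 9017 in organoids alone. The 8 endothelial markers summed to between 0.354 and 0.595 raw CPM in co-cultures and to 0.308 and 0.491 alone. The highest single value was 0.323, for Cdh5 in the third co-culture library. The defining markers of LiECs were thus at or near 0 in both groups. Hepatocyte markers were at 133, 215 and 1427 raw CPM in co-cultures and at 615 and 1498 alone, and mesenchymal markers at 1.77, 2.09 and 2.87 in co-cultures and at 21.7 and 57.7 alone. The part of these differences in the histone values was not tested. In bulk RNA, fewer cells expressing a gene and less of its RNA per cell cannot be told apart.

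Levels are first given per length, as raw CPM per kilobase of merged annotated exons, which compares genes. On this scale the variants together summed to 1017 in M9 and 884 in M10 of the co-cultures, and to 799 in M11 and 938 in M12 alone. The replication-dependent genes together summed to 508 in M9 and 552 in M10, and to 301 in M11 and 388 in M12. The 12 variant genes thus stood above the 68 replication-dependent genes by 2.0-fold in M9 and 1.60-fold in M10, and by 2.66-fold in M11 and 2.42-fold in M12. Merged exons cover every annotated transcript of a gene, so a gene that uses a short one has a higher level than the one given. Of all counts, the replication-dependent genes took 0.0557% in M9 and 0.0605% in M10, against 0.0297% in M11 and 0.043% in M12.

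Among the variants, H3f3b, a gene of the replacement histone H3.3, had the highest level per length, with 302 and 250.3 raw CPM per kilobase in co-cultures and 241 and 310.2 alone. H3f3a, the other H3.3 gene, had 117 and 112 in co-cultures and 103 and 92.0 alone. H1f0, the linker histone of resting and differentiated cells, came second, with 265 and 249 in co-cultures and 154 and 218 alone. H3f3b was above H1f0 in all 4 libraries, narrowly in M10. H2az1, which encodes H2A.Z, had 149 and 120.1 in co-cultures and 142 and 141 alone. Next came H2aj, an H2A variant known in human cells from senescence, at 88.9 and 69.3 in co-cultures and 80.1 and 81.3 alone.

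Among the replication-dependent genes, 3 stood apart from the rest in these 4 libraries. H1f2, which encodes the linker histone H1.2 and lies at 23738808 to 23740367 of chromosome 13, had 143 and 159 raw CPM per kilobase in co-cultures and 37.6 and 119 alone. H2bc4, an H2B gene at 23684199 to 23692908 of the same chromosome, had 134 and 124 in co-cultures and 96.5 and 95.3 alone. H2ac24, an H2A gene, had 86.6 and 70.9 in co-cultures and 58.7 and 61.0 alone, with 92.6% of its windows shared with other genes. In the third co-culture library, counted separately, H2bc4 had 4117 counts, H1f2 998 and H2ac24 only 3. H1f2 was above H2bc4 in M9, M10 and M12 and below it in M11. No other of the 68 averaged as high as these 3, and H2ac19 came next at 22.3 and 36.1 in co-cultures and 14.5 and 10.5 alone. The H4 gene highest on average, H4c9, had 21.03 and 27.7 in co-cultures and 11.03 and 15.3 alone. The H3 gene highest on average, H3c15, had 3.01 and 5.06 in co-cultures and 4.11 and 2.83 alone, so each H3.3 gene was far above every replication-dependent H3 gene in all 4 libraries.

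**Figure D1:**
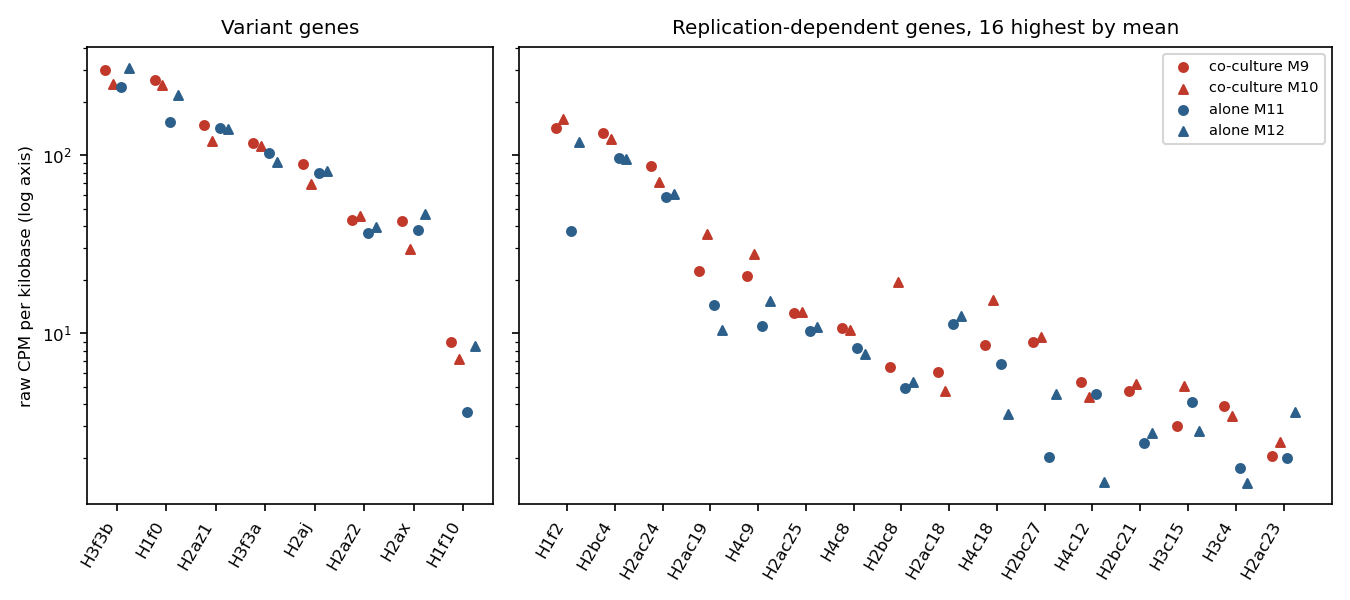
Raw CPM per kilobase of merged exons in each library, on a log axis, for the 8 variant genes that passed the low-count filter (left) and the 16 replication-dependent genes with the highest mean (right). Red points are the co-culture libraries M9 and M10 and blue points the libraries M11 and M12 of organoids alone. H1f2, H2bc4 and H2ac24 stand above the other replication-dependent genes, with H1f2 low in M11 (37.6).

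Replication-dependent counts were concentrated in a few members. H1f2 and H2bc4 together held 68.0% of them in M9 and 64.7% in M10 of the co-cultures, and 57.4% in M11 and 68.7% in M12 alone. With H2ac24 and H2ac25 the share was 80.5% in M9 and 74.97% in M10, and 74.4% in M11 and 81.0% in M12. At the other end, 29 members in M9 and 22 in M10, and 35 in M11 and 25 in M12, had fewer than 10 counts. H2ac1, H2bc1, H2bc13, H3c14 and H4c17 were at 0 in all 4 libraries, as were the germ-cell linker histones H1f7 and H1f8 among the variants.

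H2A and H2B genes often lie head to head with a shared stretch of promoter between them, and 13 such pairs were within 1000 bases. In several of them the partners were far apart in level. H2bc4 had 134 and 124 raw CPM per kilobase in co-cultures and 96.5 and 95.3 alone, while its partner H2ac6, 251 bases away, had 1.58 and 1.99 in co-cultures and 0.785 and 0.826 alone. Across another gap, of 236 bases, the H2A partner was the higher one, with H2ac24 at 86.6 and 70.9 in co-cultures and 58.7 and 61.0 alone. Its H2B partner H2bc24, with 99.8% of its windows shared with other genes, had 0.943 and 1.78 in co-cultures and 1.07 and 0.566 alone. In the third co-culture library, counted separately, H2ac24 had 3 counts and H2bc24 122, so the order of this pair did not hold there, and with so much shared sequence it is uncertain. H2ac25, on chromosome 11, had 12.95 and 13.1 in co-cultures and 10.3 and 10.8 alone, and its partner H2bc26-ps had at most 0.325 in any of the 4 libraries. H2bc21 had 4.72 and 5.21 in co-cultures and 2.42 and 2.77 alone, and its partner H2ac20 had at most 0.476.

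Of the 80 genes, 50 passed the low-count filter, 42 replication-dependent and 8 variant, and the comparison of co-cultures M9 and M10 with organoids alone is given for these. By the quasi-likelihood test of edgeR, adjusted by Benjamini-Hochberg over 15899 genes, 0 of the 50 rose and 0 fell, against 2.24% of all genes called (0.994% higher and 1.25% lower). The smallest adjusted p among them was 0.106, for H2bc9. At an unadjusted p under 0.05, 10 were higher (8.42% of all genes) and 1 was lower (9.06% of all genes), all of them replication-dependent. limma-voom called 0, against 1.79% of all genes. DESeq2 called 2 higher, H2ac19 and H2bc21, against 4.14% of all genes called higher and 8.6% called in either direction. Without the low-count filter edgeR called 3 higher (2.34% of all genes), and without library M9 it called 6 (7.74% of all genes). Neither H2ac19 nor H2bc21 passed limma-voom's test, or edgeR's test in the reported fit.

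The fold changes of the replication-dependent genes that passed lay mostly above 0. Of 42, 34 were positive (81.0%, against 50.1% of all genes tested), and the median log2 fold change was 0.69, against 0.00058 over all genes. The groups did not overlap in 20 members that were higher in co-cultures and in 5 that were lower, against 24.3% and 25.1% of all genes. By class, the median was 0.83 over 4 H1 genes, 0.44 over 9 H2A genes, 0.67 over 11 H2B genes, 0.27 over 9 H3 genes and 0.93 over 9 H4 genes. These counts describe only the genes that passed, many of which share sequence, and are no test of the family. Without the low-count filter, 45 of 63 replication-dependent genes were positive, with a median of 0.65, against -0.028 over all genes.

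The summed replication-dependent level was 557 raw CPM in M9 and 605 in M10 of the co-cultures, and 297 in M11 and 430.1 in M12 alone. The 2 libraries of organoids alone were far apart, and M12 lay closer to M9 than to M11. H1 genes carried nearly all of that spread, with 233 and 265 raw CPM in co-cultures and 64.0 and 195 alone. H2B genes had 189.9 and 192 raw CPM in co-cultures and 133 in both libraries alone, so here the libraries of each group lay close together. H2A genes had 93.5 and 93.8 in co-cultures and 70.0 and 72.4 alone, and H4 genes 29.8 and 40.4 in co-cultures and 19.3 and 19.8 alone. H3 genes had 10.95 and 14.1 in co-cultures and 10.0 and 9.37 alone. Each of the 5 sums was higher in M9 and M10 than in either library alone, and no p is given for a sum over chosen members. The third co-culture library is not part of these class sums. Its replication-dependent total, joined by transcript accession, was 173 raw CPM, below both libraries alone.

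The following values are CPM after TMM scaling, which compare libraries and not genes, and are given as CPM. H1f2 had 225 and 255 CPM in co-cultures and 57.0 and 186 CPM alone, a log2 fold change of 0.98 ± 0.51 (SE, n = 2 libraries each, edgeR adjusted p = 0.404). Both co-culture values were above both values alone, but the step between M11 and M12 was larger than that between M12 and M9. Of the other H1 genes, H1f3 had 5.11 and 11.3 CPM in co-cultures and 3.16 and 6.17 CPM alone, and H1f4 had 3.24 and 4.57 CPM in co-cultures and 1.54 and 2.78 CPM alone. H1f3 overlapped between the groups and H1f4 did not.

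Among H2A genes, H2ac24 had 42.0 and 35.1 CPM in co-cultures and 27.5 and 29.4 CPM alone, and H2ac25, on chromosome 11, had 28.0 and 28.9 CPM in co-cultures and 21.4 and 23.2 CPM alone. Their log2 fold changes were 0.44 ± 0.19 (edgeR adjusted p = 0.307) and 0.35 ± 0.18 (edgeR adjusted p = 0.411). Neither pair of groups overlapped.

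Among H2B genes, H2bc4 had 156 and 146 CPM in co-cultures and 108 and 110 CPM alone, with a log2 fold change of 0.47 ± 0.14 (edgeR adjusted p = 0.174). H2bc21 had 12.4 and 14 CPM in co-cultures and 6.17 and 7.27 CPM alone, with a log2 fold change of 0.98 ± 0.26 (edgeR adjusted p = 0.139). H2bc8 had 4.04 and 12.3 CPM in co-cultures and 2.94 and 3.29 CPM alone. The first 2 were even within each group, whereas H2bc8 was uneven in the co-cultures. H2bc9, at a low level, had 1.66 and 2.40 CPM in co-cultures and 0.44 and 0.51 CPM alone, a log2 fold change of 2.08 ± 0.49 (edgeR adjusted p = 0.106), and is named after its values were seen because it had the smallest adjusted p of the family.

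Among H3 and H4 genes, H3c4 had 4.90 and 4.37 CPM in co-cultures and 2.13 and 1.78 CPM alone (log2 fold change 1.24 ± 0.37, edgeR adjusted p = 0.175). H3c15 had 3.09 and 5.29 CPM in co-cultures and 4.08 and 2.88 CPM alone, and H3c2 had 0.80 and 0.57 CPM in co-cultures and 1.25 and 0.99 CPM alone, so the 3 H3 genes did not share a direction. H4c9 had 15.4 and 20.7 CPM in co-cultures and 7.78 and 11.1 CPM alone (log2 fold change 0.93 ± 0.29, edgeR adjusted p = 0.189). H4c8 had 5.05 and 5.03 CPM in co-cultures and 3.78 and 3.60 CPM alone, and H4c18 had 3.71 and 6.77 CPM in co-cultures and 2.79 and 1.51 CPM alone.

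**Figure D2:**
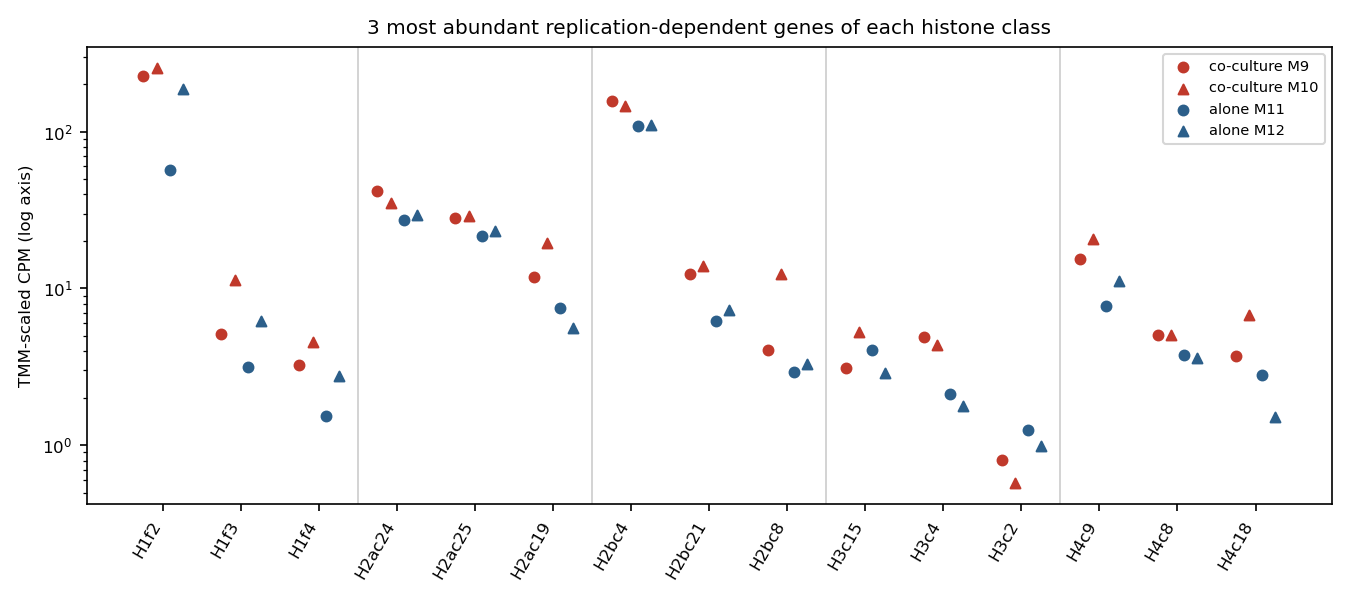
TMM-scaled CPM in each library, on a log axis, for the 3 most abundant replication-dependent genes of each histone class. Red points are co-culture libraries M9 and M10 and blue points the libraries M11 and M12 of organoids alone; H2bc4 (156 and 146 against 108 and 110 CPM) is even within each group, H1f2 is spread in the organoids alone, and H3c2 has 0.80 and 0.57 against 1.25 and 0.99 CPM.

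**Figure D3:**
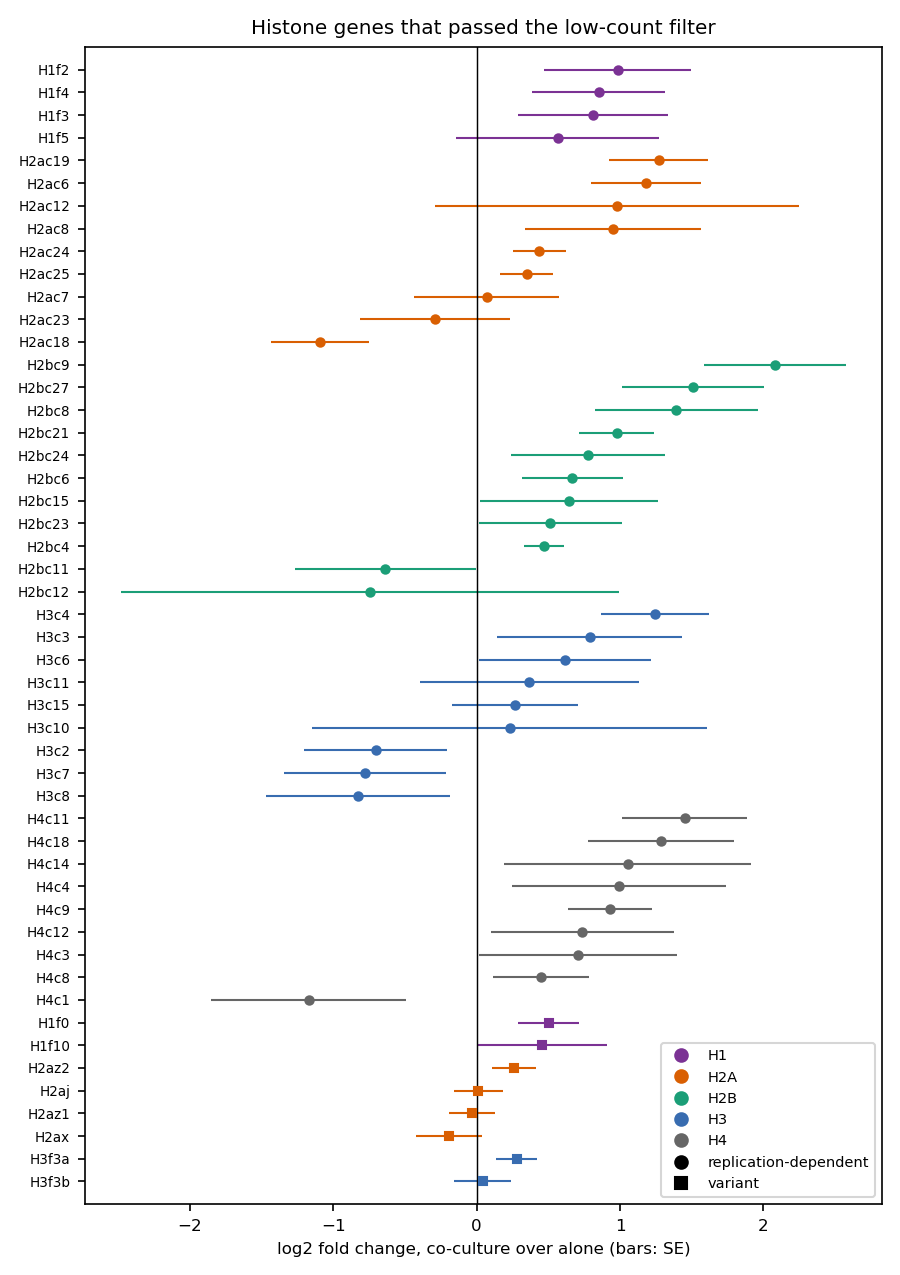
Log2 fold change of co-cultures M9 and M10 over organoids alone, with standard errors, for the 50 histone genes that passed the low-count filter, grouped by class. Circles are replication-dependent genes, 34 of 42 of which lie right of 0, and squares are variants, which lie between -0.19 and 0.50.

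Some near-identical copies differed in sign. H2ac24 and H2ac23, each the closest copy of the other, had log2 fold changes of 0.44 and -0.29, and H2ac23 overlapped between the groups. H2ac18 and H2ac19 were another such pair. H2ac18 and H2ac19 lie on opposite strands of chromosome 3, at 96245497 to 96246082 and 96239749 to 96240276. They share 88.9% and 100% of their windows with Gm20634, a gene that is not a member and is not in the sum of the copies given below. H2ac18, named after its values were seen, had 3.58 and 2.78 raw CPM in co-cultures and 6.62 and 7.32 alone, and was the 1 member lower at an unadjusted p under 0.05 (log2 fold change -1.09 ± 0.34, edgeR adjusted p = 0.184). H2ac19 had 11.8 and 19.1 raw CPM in co-cultures and 7.66 and 5.54 alone (log2 fold change 1.27 ± 0.34, edgeR adjusted p = 0.142). Their sum was 15.4 and 21.9 in co-cultures and 14.3 and 12.9 alone. In the third co-culture library the copies were nearly equal, at 5.52 for H2ac18 and 5.51 for H2ac19, and their sum of 11.03 was below both libraries alone.

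**Figure D4:**
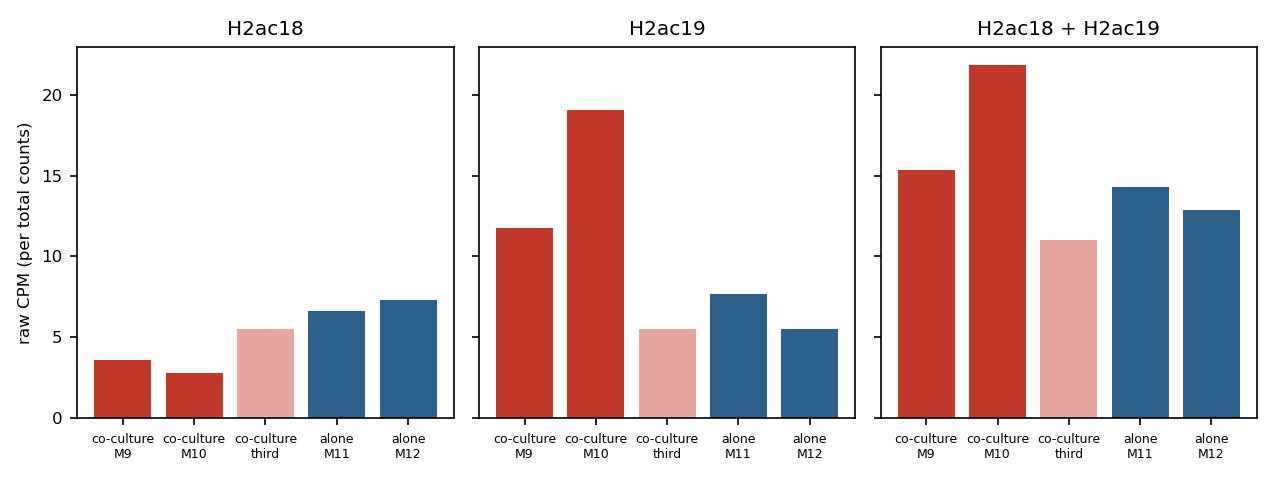
Raw CPM of H2ac18, H2ac19 and their sum in each library. Red bars are the co-culture libraries, with the third one in a lighter tone, and blue bars the organoids alone; H2ac18 is lower and H2ac19 higher in M9 and M10 than alone, neither called by edgeR, and their sum is 15.4 and 21.9 against 14.3 and 12.9.

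The summed level of the third co-culture library did not share the direction of M9 and M10. By gene symbol, 55 replication-dependent genes were found in its table, and they summed to 467 raw CPM in M9 and 515 in M10, with 148 in the third library, against 231 in M11 and 364 in M12 alone. Joined by transcript accession, which found all 68, the third library had 173 raw CPM. Of the 42 replication-dependent genes that passed, found by either join, 9 were above the mean of the organoids alone and 33 below. Their median log2 difference was -0.55, against -0.01 over the 14733 genes joined by symbol. The 42 passed the filter on M9 to M12, whereas the 14733 passed it on all 5 libraries, so these sets were not chosen alike. In the third library H1f2 had 17.2 CPM, a log2 difference of -2.63, and H2bc4 71.0 CPM, a log2 difference of -0.70. Without H1f2 and H2bc4 the sums were 88.2 in M9 and 123 in M10, with 61.1 in the third library, against 61.0 in M11 and 68.8 in M12, so the third library was then level with M11. The tables were counted with different annotations, and near-identical copies can be split differently. H2ac24 had 3 counts in the third library and 749 to 1414 in the other 4. Its closest copy H2ac23 was low in the third library too, with 6 counts there and 25.2 to 50.6 in the other 4. H3c14, all of whose windows are shared with Gm20634, a gene that is not a member, had 90 counts in the third library and 0 in the other 4. The part of the annotation and of shared reads in these values was not tested.

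Within co-cultures, M10 was above M9 in 31 of the 42 replication-dependent genes that passed (73.8%, against 49.9% of all genes) and in 1 of 8 variants. The sums of H2A (93.5 and 93.8 raw CPM) and H2B genes (189.9 and 192) were nearly equal in M9 and M10. Other short RNAs without a poly(A) tail also differed between libraries of a group. Rmrp, the RNA of the RNase MRP enzyme, had 2.98 raw CPM in M9 and 8.47 in M10, with 2.63 in the third co-culture library, against 3.74 in M11 and 6.95 in M12 alone. Rpph1, the RNA of RNase P, had 2.01 in M9 and 8.47 in M10, with 3.50 in the third library, against 3.51 in M11 and 10.9 in M12. Rny1 differed little between the co-cultures, with 0.207 in M9 and 0.251 in M10, against 0.151 in M11 and 0.548 in M12. Rny3 had 0.236 in M9 and 0.976 in M10, against 0.491 in M11 and 0.651 in M12. In the 4-library table M10 and M12 were the higher library of their group for each of these RNAs. Their part in the histone values was not tested.

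The variant histones had smaller fold changes than most replication-dependent genes. Of the 8 that passed, 0 rose and 0 fell by edgeR's quasi-likelihood test, 0 had an unadjusted p under 0.05 and DESeq2 and limma-voom called 0. Of their fold changes 6 were positive and 2 negative, with a median of 0.15. H3f3b had 904 and 764 CPM in co-cultures and 696 and 924 CPM alone, so the groups overlapped fully. H3f3a had 414 and 404 CPM in co-cultures and 351 and 323 CPM alone (log2 fold change 0.28 ± 0.14, edgeR adjusted p = 0.397), without overlap. H2az1 had 266 and 219 CPM in co-cultures and 246 and 250.2 CPM alone, and H2az2, the second H2A.Z gene, had 71.6 and 76.1 CPM in co-cultures and 58.4 and 64.9 CPM alone.

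H1f0 had 547 and 525 CPM in co-cultures and 308 and 449 CPM alone, the largest variant fold change (log2 0.50 ± 0.21, edgeR adjusted p = 0.303), and M11 was the low library, as for H1f2. H1f10, another linker histone, was lowest in M11 too, with 10.99 and 9.0 CPM in co-cultures and 4.30 and 10.3 CPM alone. H2aj had 164 and 130.2 CPM in co-cultures and 142 and 149 CPM alone, and H2ax had 59.5 and 42.1 CPM in co-cultures and 51.2 and 64.9 CPM alone. Both overlapped between the groups. In the third co-culture library H3f3b had 804 CPM, H3f3a 475, H1f0 241, H2az1 125, H2az2 70.9, H2aj 53.6 and H2ax 30.8.

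Genes that act on histone transcription and on the 3′ end were given as a list of 27 names. These include an older name each of Tut7 and Srrt, and all 25 distinct genes were tested. By edgeR's quasi-likelihood test 0 rose and 0 fell, with 4 lower at an unadjusted p under 0.05 (Ccne1, Ccne2, Casp8ap2 and Srrt), against 9.06% of all genes, and 0 higher, against 8.42%. DESeq2 called 1, Ccne1, lower, against 8.6% of all genes in either direction, and limma-voom called 0. Casp8ap2 encodes FLASH, which with Lsm11 recruits the cleavage factors, and Srrt encodes ARS2, which binds the cap complex. The median log2 fold change was -0.24, with 6 positive and 19 negative. Slbp, which binds the stem-loop printed above, had 41.0 and 31.3 CPM in co-cultures and 51.8 and 46.7 CPM alone (log2 fold change -0.45 ± 0.20, edgeR adjusted p = 0.333), without overlap. Npat, the activator of histone gene transcription, had 24.0 and 23.9 CPM in co-cultures and 31.3 and 25.2 CPM alone, and Lsm11, of the U7 particle that cuts histone pre-mRNA, had 13.3 and 10.9 CPM in co-cultures and 11.97 and 13.5 CPM alone. Ccne1, the cyclin E that with CDK2 phosphorylates NPAT, had 13.8 and 7.94 CPM in co-cultures and 26.2 and 20.8 CPM alone (log2 fold change -1.11 ± 0.33, edgeR adjusted p = 0.167).

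Of 27 histone chaperone genes, all tested, 0 rose and 0 fell by the same test, with 1 higher (Znhit1) and 5 lower (Supt16, Mms22l, Ipo4, Rbbp4 and Nasp) at an unadjusted p under 0.05, against 8.42% and 9.06% of all genes, and DESeq2 and limma-voom called 0. The median log2 fold change was -0.23. Nasp, which holds soluble H3 and H4, had 49.8 and 29.0 CPM in co-cultures and 64.1 and 67.1 CPM alone (log2 fold change -0.74 ± 0.27, edgeR adjusted p = 0.248). Chaf1a, of the complex that deposits H3 and H4 behind the replication fork, had 39.6 and 23.4 CPM in co-cultures and 51.0 and 46.3 CPM alone. Asf1b, which hands H3 and H4 to that complex, had 18.4 and 8.63 CPM in co-cultures and 22.7 and 19.4 CPM alone. Hira, which deposits H3.3 independently of replication, had 70.3 and 59.3 CPM in co-cultures and 53.1 and 61.8 CPM alone, with overlap.

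The fold changes of S phase genes had the opposite sign to those of most replication-dependent histone genes. All 26 tested were negative, with a median log2 fold change of -0.59, and 22 were lower without overlap, against 25.1% of all genes. By edgeR's quasi-likelihood test 0 rose, 0 fell and 6 were lower at an unadjusted p under 0.05, against 9.06% of all genes. The lists overlap: Ccne1 and Ccne2, both among the 6, are also in the transcription and 3′ end list, and Mcm2 is also in the chaperone list. DESeq2 called 2, Ccne1 and Fen1, lower, against 8.6% of all genes in either direction, and limma-voom called 0. Pcna, the sliding clamp of DNA polymerase, had 160.3 and 95.1 CPM in co-cultures and 197 and 182 CPM alone. Top2a had 221 and 129 CPM in co-cultures and 231 and 214 CPM alone, and Mki67 had 178 and 105 CPM in co-cultures and 186 and 187 CPM alone. M9 was above M10 in all 26, whereas M10 was the higher library for most replication-dependent histone genes. In the third co-culture library all 26 were below the mean of the organoids alone, with a median log2 difference of -1.43, as 33 of 42 replication-dependent histone genes were.

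**Figure D5:**
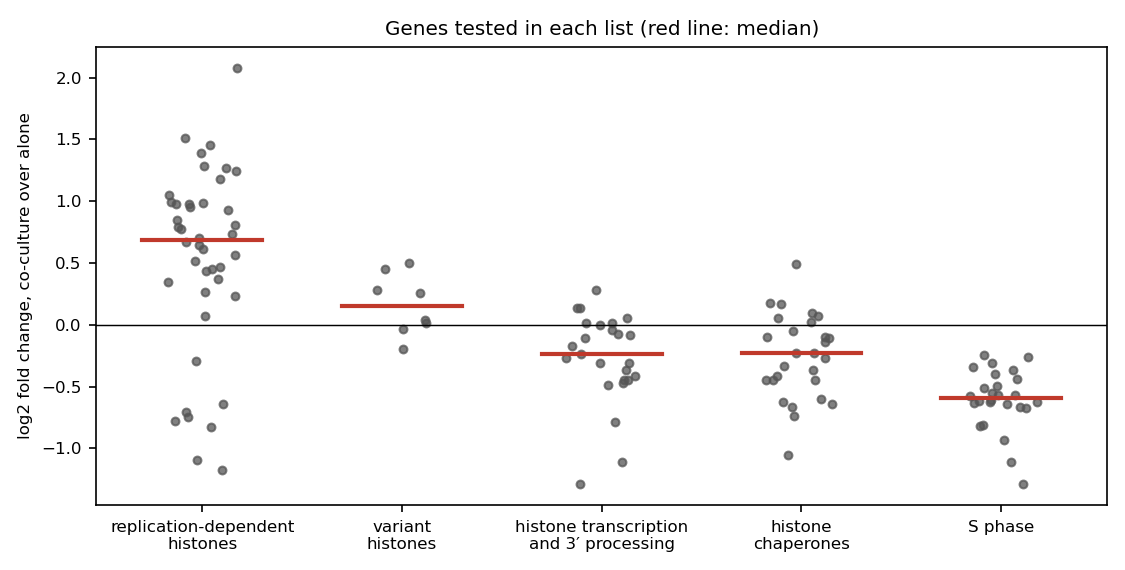
Log2 fold change of co-cultures M9 and M10 over organoids alone for each tested gene of 5 lists, with the median as a red line. Ccne1 and Ccne2 are shown under both S phase and 3′ processing, and Mcm2 under both S phase and chaperones. The medians are 0.69 for replication-dependent histones, 0.15 for variants, -0.24 for transcription and 3′ processing, -0.23 for chaperones and -0.59 for S phase genes, and no gene of these lists passed the test of edgeR.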

How the data were processed

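Estimated counts per Ensembl gene for 4 libraries, and whole-number counts per RefSeq gene for the third co-culture library, were deposited by the authors, per the file headers. Tools named without a role in the submitters' processing notes are StringTie 2.1.3b, Bowtie2 2.3.4.1, HISAT2 2.1.0, FastQC 0.11.7 and Trimmomatic 0.38, with builds mm10 and GRCh37. How reads were counted, reads matching several copies and strand included, is not given in the sources used here. The third library was assigned from its record, since its column carries another number.

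Estimated counts were rounded, filtered with filterByExpr and compared with edgeR 4.0.16 (TMM, robust quasi-likelihood; adjusted p under 0.05) in 2 co-culture and 2 alone libraries; the step was tested on simulated data. Third-library CPM come from scaling all 5 libraries, and log2 differences use a pseudocount of 0.5 CPM. limma-voom used limma 3.58.1, and DESeq2 was 1.42.0. Further alternatives were RLE scaling, total counts only, filters on low counts, leave-one-library-out fits and a fit to all 5 libraries. Levels per length use merged exons of GENCODE M21, and stem-loops and shared 75-base windows come from its transcripts.

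The members and lists were chosen with earlier results of these data known. Named genes were the 3 replication-dependent genes of each class with the highest mean log2 CPM, every variant that passed the filter, and Slbp, Npat, Lsm11, Asf1b, Chaf1a, Nasp, Hira, Mki67, Pcna and Top2a.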

Additional observations from a re-analysis of the deposited data

Results flagged for a closer look

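In the third co-culture library, 4 named histone genes were above both libraries of organoids alone, although most members were below. H2bc21 had 15.6 CPM there, against 6.53 CPM in M11 and 7.67 CPM in M12. H2bc8 had 10.0 CPM, against 3.11 CPM in M11 and 3.47 CPM in M12. H2az2 had 70.9 CPM, against 61.9 CPM in M11 and 68.4 CPM in M12, and H3f3a had 475 CPM, against 372 CPM in M11 and 340.5 CPM in M12. As a single library, counted separately with another annotation, it gives these differences no test.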

How the results depend on the processing

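No histone gene was called lower under any alternative run. Histone genes called higher numbered 0 in the reported fit, 3 with no low-count filter (H2ac19, H2bc27 and H2bc9), 2 with DESeq2, and 0 to 6 with a library left out. The 6, called without M9 (7.74% of all genes higher), were H2ac19, H2bc21, H2bc8, H2bc9, H4c18 and H4c9. Processing genes called numbered 1 with no filter, 1 with DESeq2 and 0 to 5 with a library left out; chaperone genes numbered 2 with no filter and 0 to 9; S phase genes numbered 2 with no filter, 2 with DESeq2 and 0 to 23, each highest without M9. Counts over all genes moved too, with 356 called as reported, 1404 with no filter, 1314 with DESeq2, 285 with limma-voom, 2 with all 5 libraries, and 2619 without M9, 1114 without M10, 50 without M11 and 0 without M12. The cause was not tested.

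The median replication-dependent log2 fold change of 0.69 was 0.36 with all 5 libraries, and 0.35 (without M10) to 0.97 (without M12) with a library left out. It covered 42 genes as reported and 38 with all 5 libraries. The genes covered also differed with a library left out, so members changed along with libraries. The log2 ratio of the summed replication-dependent level was 0.72 as reported, 0.38 with all 5 libraries and 0.33 with these joined by transcript accession, and 0.46 (without M11) to 1.03 (without M12) with a library left out. Without H1f2 and H2bc4, an alternative chosen like the accession join after seeing the data, it was 0.63. The variant median of 0.15 ranged from -0.025 (without M11) to 0.24 (without M12). Named genes that changed sign were uncalled throughout: H2aj (-0.029 on total counts only; -0.15 without M9 to 0.17 without M10), H3c15 (-0.087 with all 5 libraries; -0.17 without M10 to 0.62 without M9), H3f3b (-0.14 without M11 to 0.26 without M12), H1f10 (-0.035 without M11 to 1.22 without M12), H2ax (-0.45 without M9 to 0.040 without M10) and H2az1 (-0.17 without M9 to 0.10 without M10).

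A fit with a library left out assumes that the lone library varies like the other group. No paired analysis was possible because the columns of the 4-library table carry no replicate number of the titles. Depth limits low members: 22 to 35 replication-dependent genes had fewer than 10 counts in a library.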
